A study of Mus musculus with 16 samples.

Results

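The snoRNA host genes described here are Snhg1, Snhg3, Snhg4, Snhg5, Snhg6, Snhg8, Snhg12, Snhg15, Snhg17 and Gas5, which are 10 of the 54532 genes in the count table. They were taken by gene name (for example Snhg17, ENSMUSG00000085385, and Gas5, ENSMUSG00000053332), and Snhg17 was picked on its sharp rise with beads, so its values in the bead comparisons are given as a description without a test. RNA-seq was performed on TCF1+CD8+ T cells, which are CD8+ T cells that keep the transcription factor of stem-like T cells. Naive CD8+ T cells from spleens of C57BL/6J mice were activated repeatedly in culture for 4 days, so the samples are an in vitro model and hold no tumour. All cells then received low-dose IL-2 (85 U per ml) for 4 h. Stimulated cells also received anti-CD3/CD28 beads at 1 bead per cell, which engage the T cell receptor and the costimulatory receptor CD28, and unstimulated cells received none. Cells with PGE2 (prostaglandin E2, 100 ng per ml) had been pre-incubated with it for 1 h, and untreated cells had not. The 4 groups were unstimulated untreated, unstimulated PGE2, stimulated untreated and stimulated PGE2, with 4 replicates each. The labels do not say whether replicates came from separate animals or cultures, so p-values measure the spread between these samples.

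A snoRNA host gene carries small nucleolar RNAs (snoRNAs) in its introns. After splicing, the excised introns are trimmed to snoRNAs, which assemble with core proteins into snoRNPs. Those with C and D boxes guide ribose methylation of ribosomal RNA, and those with H and ACA boxes guide its pseudouridylation, so both classes serve the production of ribosomes. The joined exons of these hosts encode no known protein, and for several of them, Gas5 first among them, the spliced RNA is known to be a substrate of nonsense-mediated decay. Gas5 was named for its accumulation in growth-arrested cells and has been studied in T lymphocytes. A T cell that is activated is known to raise its ribosome production before it divides. The libraries were enriched for poly(A) RNA, so counts report the host transcripts and not the mature snoRNAs, which have no poly(A) tail.

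In GENCODE M21, an annotation of the build used by the submitters (GRCm38), 9 of the 10 hosts were found, and 33 snoRNA gene entries lay inside them on the same strand. Gas5 (chr1:161034422-161038539) held 10 of these, Snhg1 (chr19:8723475-8726443) 8, Snhg12 (chr4:132308623-132311024) 5 and Snhg17 (chr2:158353700-158361580) 3. Snhg5 (chr9:88521050-88522929) and Snhg3 (chr4:132348014-132353686) held 2 each. Snhg6 (chr1:9941959-9944118), Snhg8 (chr3:123507552-123508404) and Snhg15 (chr11:6525591-6528760) held 1 each. Snhg4 was not matched in the annotation used here. Gas5, Snhg1 and Snhg12 lie on the plus strand and the other 6 matched hosts on the minus strand.

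The nested snoRNAs were read from the transcript sequences of the same annotation to show which class each host carries. C and D box letters (TGATGA within the first 20 bases and CTGA within the last 20) were found in 18 of the 33 (54.5%), against 20.2% of all 1558 annotated snoRNAs and scaRNAs. ACA letters within the last 6 bases, without both boxes, were found in 10 (30.3%), against 45.8% of all. Apart from Snhg12, each host held matches of 1 class. All matches in Gas5 (8 of 10 entries), Snhg1 (6 of 8), Snhg5 (2 of 2) and Snhg6 (1 of 1) were of the C and D kind, and all in Snhg17 (3 of 3), Snhg3 (2 of 2), Snhg8 (1 of 1) and Snhg15 (1 of 1) ended in ACA letters. Snhg12 was mixed, with 3 ACA entries, of which both of Snora16a overlap, and 1 of the C and D kind. In Gas5 both entries of Snord80 overlap as well, and 1 match is named Mir5117. The counts above take every entry. The following 6 are shown because Snhg17 and Snhg15 were the hosts with a match that differed most with beads, Gas5 was the most abundant and the snoRNA in Snhg6 was the one that received reads. Letters are DNA letters of the RNA strand, 5′ to 3′, with the boxes or the ACA in capitals.
Gm24411 in Snhg17 (chr2:158356424-158356554, minus strand): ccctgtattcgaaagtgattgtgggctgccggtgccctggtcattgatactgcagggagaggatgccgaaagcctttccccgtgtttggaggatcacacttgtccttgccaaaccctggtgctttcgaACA
Gm26003 in Snhg17 (chr2:158358360-158358472, minus strand): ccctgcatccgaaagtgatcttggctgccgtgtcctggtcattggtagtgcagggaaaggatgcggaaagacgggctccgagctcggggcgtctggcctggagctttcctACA
Gm23925 in Snhg17 (chr2:158359798-158359929, minus strand): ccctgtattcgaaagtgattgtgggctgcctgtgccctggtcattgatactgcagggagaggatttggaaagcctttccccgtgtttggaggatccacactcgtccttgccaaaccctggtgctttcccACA
Snora9 in Snhg15 (chr11:6528033-6528165, minus strand): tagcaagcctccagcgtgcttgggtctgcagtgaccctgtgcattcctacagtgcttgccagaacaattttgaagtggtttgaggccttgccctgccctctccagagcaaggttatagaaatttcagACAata
Snord47 in Gas5 (chr1:161038082-161038158, plus strand): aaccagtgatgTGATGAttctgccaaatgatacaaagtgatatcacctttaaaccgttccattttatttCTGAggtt
Snord87 in Snhg6 (chr1:9942463-9942549, minus strand): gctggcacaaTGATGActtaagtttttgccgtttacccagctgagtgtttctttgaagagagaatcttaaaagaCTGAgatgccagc

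The snoRNA genes themselves were nearly without counts. Of the 33 nested entries, 30 lay wholly within exon models of their host, and only Snord87, in an intron of Snhg6, had a count, with 129 reads over all 16 samples and at most 25 in 1 sample. All 1558 snoRNA and scaRNA genes together took 0.00424% to 0.0139% of the counts. Exon models covered 100% of the span of Snhg1, Snhg8 and Snhg12, 89.5% of Snhg17 and 42.9% of Snhg15, so that most introns of the first 4 are also exon in some annotated transcript and their reads are counted. No source states whether reads were counted by strand. This matters for Snhg3, which shares 71.5% of its exon bases with Gm17300 on the other strand and 13.7% with Rcc1 on its own strand, and for Snhg6, which shares 11.1% with Mcmdc2, a gene at 0.129 CPM.

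Start regions from RefSeq (GRCm38.p6) were matched for 8 of the 10 hosts, with 10 annotated starts between them. Snhg6 and Snhg4 were not matched. The windows below run from 40 bases before the start to 50 bases from it on and are shown for the 7 matched hosts that entered a test. The second start of Snhg17 and the first start of Gas5, which held none of the marked letters, are not shown. Capitals mark 3 kinds of letters. A run of C followed by at least 4 pyrimidines (C or T) marks the kind of start from which mRNAs of ribosomal proteins are transcribed (a TOP start). CACGTG is the E-box letters, which read the same on both strands, and TATA was searched on the sense strand between 40 and 20 bases before the start.
Snhg17 (chr2:158361473-158361562, minus strand): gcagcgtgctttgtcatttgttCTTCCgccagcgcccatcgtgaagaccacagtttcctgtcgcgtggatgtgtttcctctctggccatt
Snhg15 (chr11:6528711-6528800, minus strand): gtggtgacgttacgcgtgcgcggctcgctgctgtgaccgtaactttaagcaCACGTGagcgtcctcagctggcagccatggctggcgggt
Snhg12 (chr4:132308638-132308727, plus strand): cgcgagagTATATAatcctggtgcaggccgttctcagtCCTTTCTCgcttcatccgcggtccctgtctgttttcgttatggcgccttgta
Snhg1 (chr19:8723447-8723536, plus strand): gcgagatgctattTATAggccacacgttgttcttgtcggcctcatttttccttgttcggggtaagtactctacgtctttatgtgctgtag
Snhg5 (chr9:88522848-88522937, minus strand): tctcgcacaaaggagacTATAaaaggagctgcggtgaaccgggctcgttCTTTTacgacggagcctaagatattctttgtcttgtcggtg
Gas5 second start (chr1:161035126-161035215, plus strand): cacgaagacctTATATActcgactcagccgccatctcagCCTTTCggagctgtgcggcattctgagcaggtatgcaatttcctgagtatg
Snhg8 (chr3:123508287-123508376, minus strand): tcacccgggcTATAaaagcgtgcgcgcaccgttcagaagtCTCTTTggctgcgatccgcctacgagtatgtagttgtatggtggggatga

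A run with its C at the annotated start itself was found in 2 of the 10 windows, those of Snhg8 and the second start of Gas5 (20%), against 2.51% of all 32851 promoters and 19.5% of 77 of ribosomal protein genes. Within 20 bases of the start such a run was found in 6 windows (60%), against 48.2% of all promoters, so at that distance the letters were common everywhere. CACGTG was found within the 300-base window of Snhg15 only (10%), at base 12 of the transcript, against 7.15% of all. TATA, which was added to the search after the letters had been seen, was found in 5 windows (50%) against 5.49%. They belong to Snhg1, Snhg5, Snhg8, Snhg12 and the second start of Gas5, whereas neither start of Snhg17 nor the starts of Snhg15 and Snhg3 held it. These are matches of letters, and which start was in use was not measured.

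The summed count of a sample was between 22678254 and 42950763. T cell markers were high in every sample (Cd8a 667 to 1210 CPM, Cd3e 218 to 344, Tcf7, which encodes TCF1, 289 to 1540, all as CPM, a gene's count scaled to the total count of its library). The 12 markers of other cells that a spleen culture could hold (erythroid, NK, CD4+ T, myeloid and B cells) summed to 4.63 to 9.74 CPM in unstimulated untreated, 6.01 to 13.2 in unstimulated PGE2, 4.05 to 9.01 in stimulated untreated and 4.5 to 10.2 CPM in stimulated PGE2 samples. Of these, Ncr1 and Hbb-bs were at 0 in all 16 samples, and the highest were Cd68 (up to 6.19 CPM) and Cd79a (up to 3.61 CPM), so such cells contributed little RNA and their sums overlapped between groups.

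The hosts together took a small part of each library, and that part differed by group. It was 0.0833% ± 0.0048 of the counts (SD, n = 4) in unstimulated untreated cells, 0.0646% ± 0.00624 with PGE2, 0.114% ± 0.00474 in stimulated untreated cells and 0.101% ± 0.00382 with PGE2 and beads. No sample of 1 group lay within the range of another, the closest being 0.106% in stimulated PGE2 and 0.109% in stimulated untreated cells. Gas5 alone supplied 49.5% ± 1.38 of the host counts in unstimulated untreated cells, 52.4% ± 2.04 in unstimulated PGE2, 40.2% ± 1.5 in stimulated untreated and 42.4% ± 2.95 in stimulated PGE2 cells. In bulk RNA, fewer cells of a type and less RNA per cell cannot be told apart, and a share of the library says nothing of the total RNA of a cell.

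**Figure D1:**
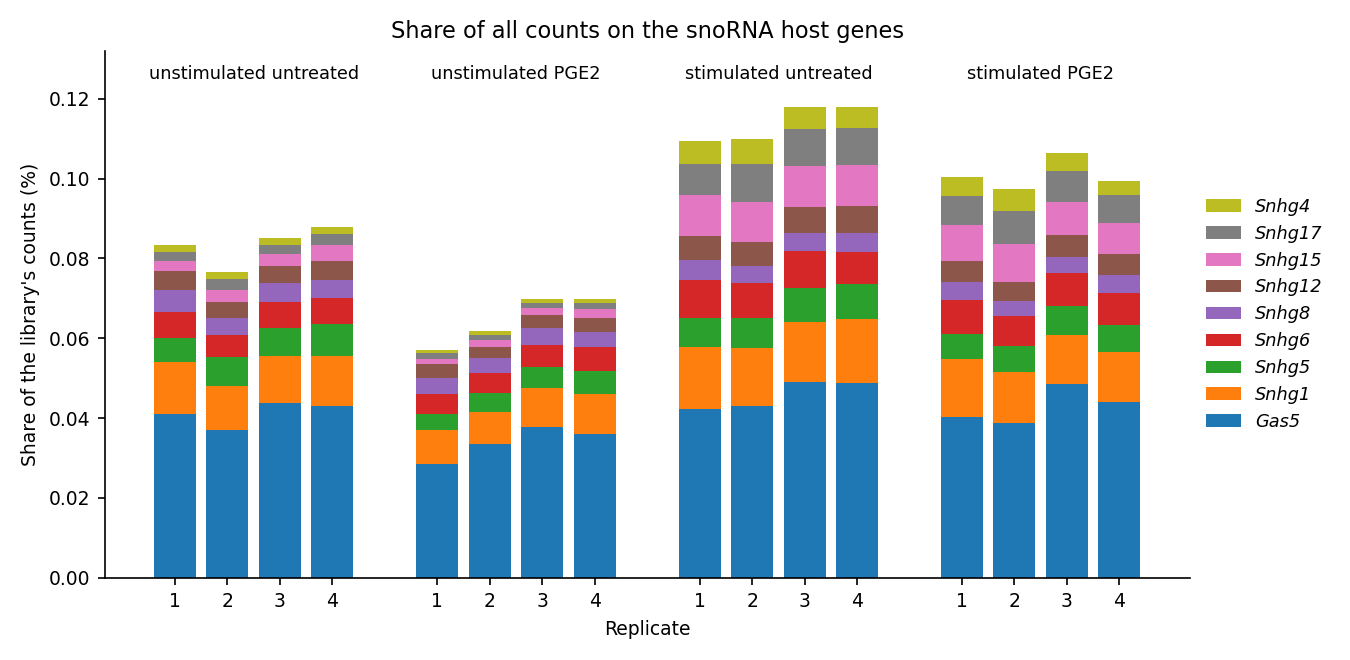
Percent of each library's counts on the snoRNA host genes (vertical axis) for the 4 replicates of each group, stacked by gene. Snhg3, with at most 16 counts in a sample, is too low to be drawn. Totals lay between 0.0571% and 0.0698% in unstimulated PGE2 samples and between 0.109% and 0.118% in stimulated untreated ones.

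Between genes, levels were compared per length, as FPKM (fragments per kilobase of exon, scaled to library size). Gas5 was the highest host in all 4 groups, with 100 ± 6.76 FPKM in unstimulated untreated and 124.5 ± 5.06 in stimulated untreated cells. In unstimulated untreated cells it was followed by Snhg8 (50.8 ± 7.98) and Snhg6 (50.2 ± 5.01), then Snhg5 (37.4 ± 3.69) and Snhg1 (37.1 ± 3.46), then Snhg15 (20.4 ± 3.47) and Snhg12 (17.0 ± 1.5), and then Snhg17 (3.42 ± 0.366) and Snhg4 (3.36 ± 0.0947). The 2 genes of each of these pairs overlapped between samples, and the pairs did not overlap with each other. With beads the order changed. Snhg15 was at rank 6 without beads and at rank 3 with them, at 77.2 ± 3.63 FPKM, where its samples overlapped those of Snhg6 (80.9 ± 9.48) and no longer those of Snhg12 (27.0 ± 1.02). Snhg17 (13.0 ± 0.667) and Snhg4 (12.3 ± 1.38) stayed at ranks 8 and 9, overlapping with each other in every group. Snhg3 was the lowest throughout, at 0.0757 ± 0.0412 FPKM in unstimulated and 0.381 ± 0.226 in stimulated untreated cells.

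**Figure D2:**
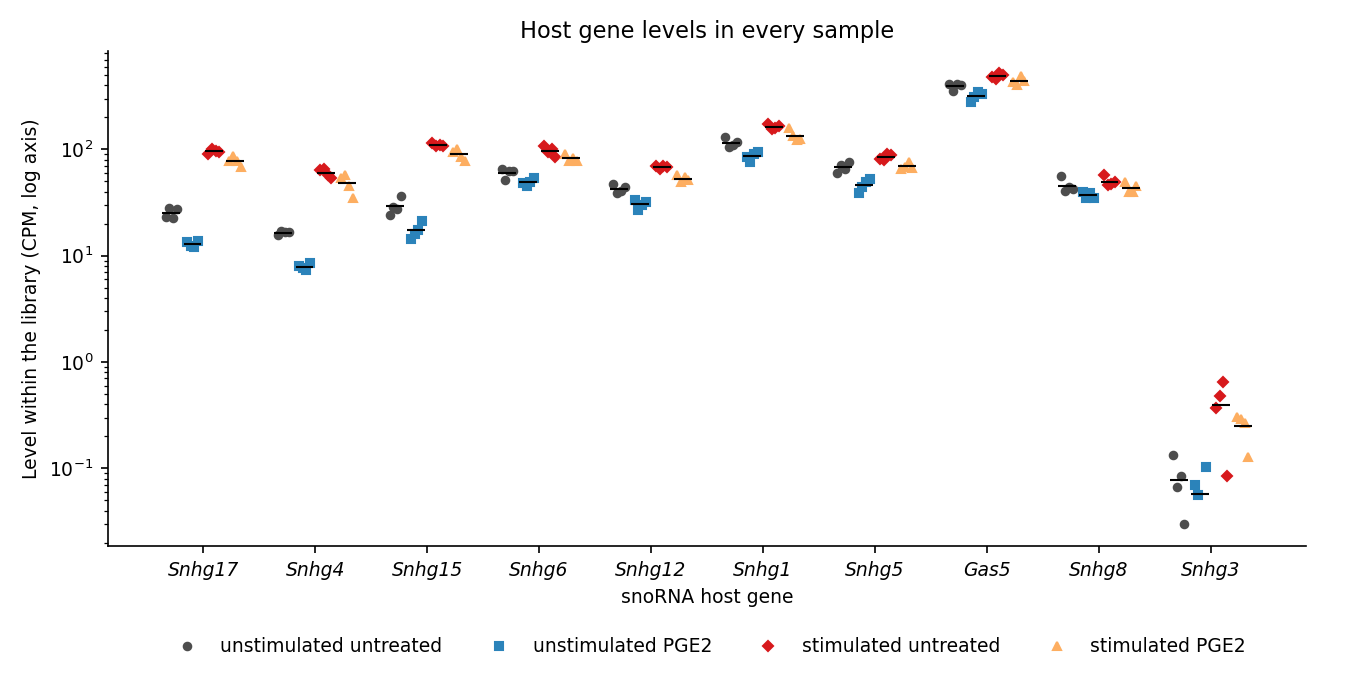
CPM of the 10 hosts (logarithmic vertical axis) in each of the 16 samples, with a horizontal line at each group's mean. For Snhg17, Snhg4 and Snhg15 all stimulated samples lie well above all unstimulated ones, and 1 unstimulated PGE2 sample of Snhg3 at 0 is not drawn.

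The bead comparison asks how the hosts respond when the T cell receptor is engaged for 4 h, here without PGE2. Counts were tested with edgeR's quasi-likelihood test over all genes that passed the count filter, with Benjamini-Hochberg adjustment over all of them, and a gene was called at an adjusted p below 0.05. A called gene with a fold change of at least 2 is named a DEG. Of the 9 hosts other than Snhg17, 8 passed the filter, and 7 of these 8 were called higher and none lower, in a comparison in which 31.7% of 14205 genes were called higher and 34.8% lower. With the TMM factors of the fit, taken over the compared samples alone, every stimulated sample lay above every unstimulated one for the same 7, as for 29.5% of all genes. Their sizes differed widely. Snhg4 and Snhg15 were DEGs (11.5% of all genes were DEGs with a rise), whereas the other 6 lay between 0.12 and 0.67 on the log2 scale, and the median of the 8 was 0.57 beside −0.03 over all genes.

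Snhg15, host of Snora9, had 24.3, 28.6, 27.8 and 36.2 CPM in unstimulated untreated replicates 1 to 4 and 115, 108, 109 and 109 CPM in stimulated ones. The lowest stimulated sample was well above the highest unstimulated one. Its log2 fold change was 1.90 ± 0.107 (SE), or 3.73-fold, with an adjusted p of 2.84e-08 by edgeR's quasi-likelihood test. Snhg4 had 15.8, 17.0, 16.6 and 16.6 CPM without beads, a spread of less than 2 CPM, and 64.0, 66.2, 57.8 and 53.9 with them. It rose 3.63-fold (log2 1.86 ± 0.0889, adjusted p = 1.35e-08 by edgeR). Snhg17, which carries 3 ACA snoRNAs, had 23.3, 28.0, 22.8 and 27.4 CPM without beads and 89.9, 102, 97.4 and 95.2 with them. That rise, for which it was picked, was 3.74-fold (log2 1.91 ± 0.0841), and no test is given for it.

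Gas5, which carries C and D snoRNAs, had 411, 355, 414 and 404 CPM without beads and 482, 460, 521 and 506 with them. The groups did not overlap, and the rise was 1.23-fold (log2 0.30 ± 0.0747, adjusted p = 0.00336 by edgeR). Snhg6 rose 1.6-fold (0.67 ± 0.0971, adjusted p = 4.83e-05), Snhg1 1.41-fold (0.49 ± 0.0765, adjusted p = 9.43e-05) and Snhg5 1.24-fold (0.31 ± 0.0801, adjusted p = 0.004). The mixed host Snhg12 went from 38.7 to 47.1 CPM without beads to 65.1 to 69.8 CPM with them, a rise of 1.58-fold (0.66 ± 0.0739, adjusted p = 5.67e-06). Snhg8, host of Snora24, did not pass the test. It had 55.9, 40.4, 43.9 and 42.2 CPM without and 57.2, 46.1, 47.2 and 49.0 CPM with beads, so that its groups overlapped (log2 0.12 ± 0.108, 95% interval −0.0912 to 0.333, adjusted p = 0.343). Without unstimulated untreated replicate 1, its highest unstimulated sample, its log2 value was 0.23 (adjusted p = 0.0421, over all alternatives 0.0421 to 0.844). The other 7 were called in all 18 alternatives.

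Snhg3 was too low for the filter. Its counts in replicates 1 to 4 were 3, 2, 3 and 1 in unstimulated untreated, 2, 2, 0 and 4 in unstimulated PGE2, 14, 13, 16 and 2 in stimulated untreated and 9, 7, 9 and 3 in stimulated PGE2 cells. The groups overlapped in counts, and reads of overlapping genes may be among them, so it is left out of what follows.

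With PGE2 present, the same comparison gave larger values in all 8 hosts tested, a difference that the interaction tests. All 8 were called higher, as were 32.5% of 14507 genes (31.7% were called lower), with groups that did not overlap (30.7% of all genes), and Snhg4 and Snhg15 were again DEGs (12.7% of all genes). The median was 0.71 on the log2 scale beside 0.00 over all genes. Snhg4 went from 7.98, 7.68, 7.30 and 8.53 CPM to 53.3, 57.8, 45.5 and 35.1 CPM. That is 6.16-fold (2.62 ± 0.155, adjusted p = 1.14e-06 by edgeR), with the stimulated samples spread over a range of more than 20 CPM. Snhg15 went from 14.4, 16.2, 17.5 and 21.3 CPM to 95.5, 100, 84.8 and 78.6 CPM (5.21-fold, 2.38 ± 0.135, adjusted p = 1.1e-06). Snhg17 went from 13.5, 12.4, 12.0 and 13.8 CPM to 78.2, 87.1, 77.5 and 67.9 CPM, which is 6.07-fold (2.60 ± 0.0977), again without a test.

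The remaining rises with PGE2 were 1.76-fold for Snhg12 (0.82 ± 0.0863), 1.7-fold for Snhg6 (0.76 ± 0.0831), 1.59-fold for Snhg1 (0.66 ± 0.103), 1.5-fold for Snhg5 (0.59 ± 0.103) and 1.4-fold for Gas5 (0.49 ± 0.0908). The adjusted p of these 5 was between 1.4e-05 and 0.000694 by edgeR. Snhg8 was again the smallest (1.19-fold, 0.25 ± 0.0937, adjusted p = 0.0361). Its call was lost in 16 of 18 alternatives, among them the removal of any 1 of the 8 libraries (adjusted p 0.0514 to 0.107), and adjusted p ranged from 0.033 to 0.249 over the alternatives.

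The size of the bead response varied within the snoRNA classes. Among hosts whose snoRNAs end in ACA letters, Snhg15 rose 3.73-fold without PGE2 and Snhg8 had 1.09-fold. Hosts of C and D snoRNAs lay between 1.23-fold and 1.6-fold. This is a description of few genes and was not tested.

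**Figure D3:**
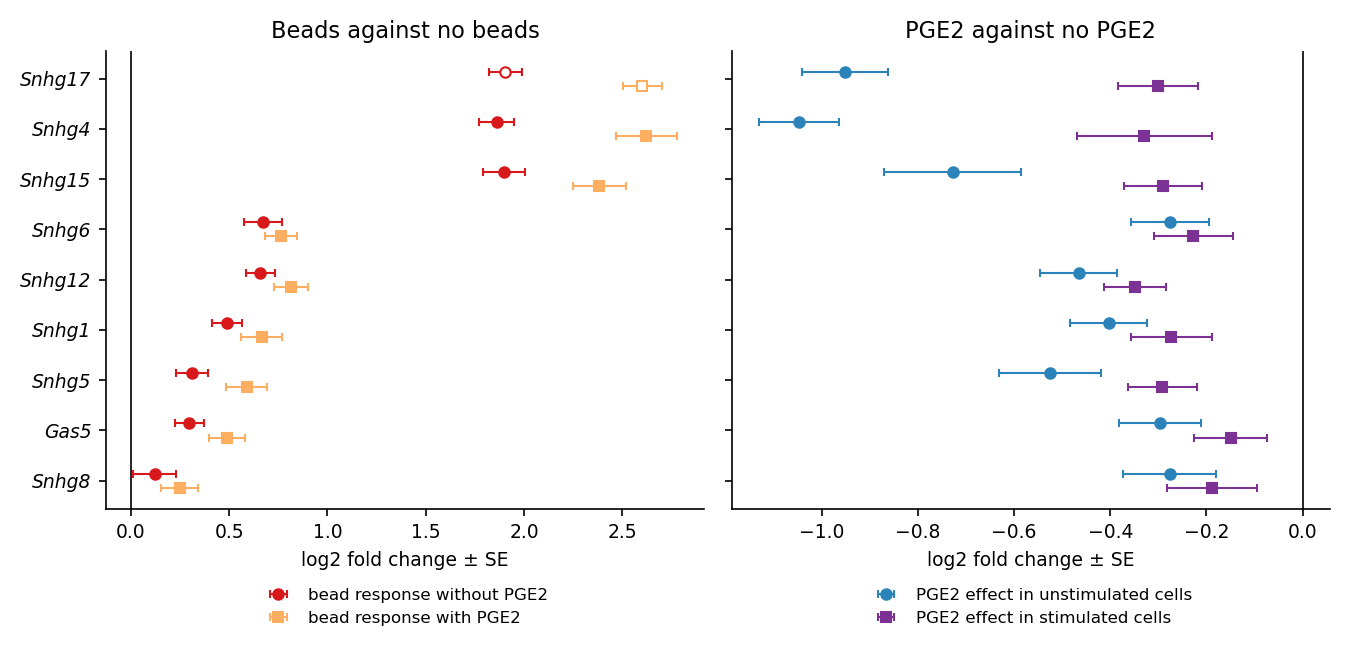
log2 fold change ± SE from edgeR (horizontal axis) of the 9 hosts that passed the count filter. The left panel shows beads against no beads without and with PGE2, and the right panel PGE2 against no PGE2 in unstimulated and stimulated cells. Open symbols mark Snhg17 in the bead comparisons, which has no test there. Every bead value is above 0 and every PGE2 value below it.

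PGE2 in the absence of beads lowered most hosts. Of the 9 tested, now with Snhg17, 8 were called lower, beside 15.5% of 14505 genes called lower (12.9% were called higher). Snhg17 is among the 8, and of the other hosts tested only Snhg8 was not called. The treated samples lay below all untreated ones for 7 of the 9, as for 16.1% of all genes. The median log2 value was −0.47 beside −0.00 over all genes. Each of the 9 was lower in all 4 pairs of samples with the same replicate number, a count not made over all genes. Snhg4 was the single DEG (1.92% of all genes were DEGs with a fall). Its 4 treated samples, 7.30 to 8.53 CPM, were below the untreated 15.8 to 17.0 CPM, a 2.07-fold fall (−1.05 ± 0.0831, adjusted p = 9.08e-06 by edgeR).

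Snhg17 and Snhg15 followed. Snhg17 fell from 22.8 to 28.0 CPM in untreated samples to 12.0 to 13.8 CPM with PGE2, without overlap, which is 1.94-fold (−0.95 ± 0.0898, adjusted p = 2.59e-05). Its untreated samples are also those of the bead comparison it was picked on, so that this test is not independent of that choice. Snhg15 fell from 24.3 to 36.2 CPM to 14.4 to 21.3 CPM, 1.66-fold (−0.73 ± 0.143, adjusted p = 0.00284). Snhg4, Snhg17 and Snhg15 thus had log2 values of 1.86, 1.91 and 1.90 with beads and of −1.05, −0.95 and −0.73 here, in comparisons that share the unstimulated untreated samples.

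Smaller falls were seen in the other hosts. Snhg5 fell 1.44-fold (−0.53 ± 0.106, adjusted p = 0.00342 by edgeR), Snhg12 1.38-fold (−0.47 ± 0.0797, adjusted p = 0.0012) and Snhg1 1.32-fold (−0.40 ± 0.0804, adjusted p = 0.00315), all without overlap of the groups. Gas5 had 411, 355, 414 and 404 CPM untreated and 280, 312, 347 and 330 CPM with PGE2. All treated samples were below the lowest untreated one, 355 CPM, but overlapped it with TMM factors of the compared samples alone. The fall was 1.23-fold (−0.30 ± 0.0852, adjusted p = 0.0225). Snhg6 fell 1.21-fold (−0.27 ± 0.081, adjusted p = 0.0255). Snhg8 gave the same size (1.21-fold, −0.28 ± 0.0961) and did not pass, with an adjusted p of 0.0515 that became 0.000998 with the replicate number as a block (over all alternatives 0.000998 to 0.179).

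The calls of Gas5, Snhg6 and Snhg8 changed with the alternatives. Gas5 lost its call without unstimulated untreated replicate 3 (adjusted p = 0.0622) or unstimulated PGE2 replicate 2 (0.0749), in a range of 0.000156 to 0.0749 over the alternatives. Snhg6 lost it without untreated replicates 1, 3 or 4 or PGE2 replicates 1 or 2 (0.0515 to 0.103), and in limma on log2(FPKM + 1) without a filter (0.0728). Snhg8 gained a call in 6 of 18 alternatives, which besides the block were DESeq2 (0.0492), no count filter (0.0321), at least 10 counts in every sample (0.0461), 1 fit of all 16 samples (0.0471) and the removal of untreated replicate 4 (0.0497). The other 6 kept their calls in all 18 alternatives.

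In stimulated cells PGE2 gave values of the same sign, nearer to 0. All 9 tested hosts had negative log2 fold changes, between −0.35 and −0.15 with a median of −0.29 (−0.01 over all genes). Of the 9, 4 were called lower, Snhg17 among them, beside 3.8% of 13922 genes (6.04% were called higher). The same 4 had treated samples below all untreated ones, as had 8.06% of all genes. Snhg12 went from 69.8, 65.1, 69.8 and 68.0 CPM to 56.9, 49.8, 55.0 and 51.4 CPM, the clearest separation of the set. Its fall was 1.27-fold (−0.35 ± 0.0638, adjusted p = 0.00864 by edgeR) and was called in all 18 alternatives.

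Snhg5 fell from 79.8 to 90.2 CPM to 65.9 to 75.7 CPM (1.22-fold, −0.29 ± 0.0719, adjusted p = 0.0322). Snhg17 fell from 89.9 to 102 CPM to 67.9 to 87.1 CPM (1.23-fold, −0.30 ± 0.0835, adjusted p = 0.0491), where the untreated samples are the high arm of the bead comparison it was picked on, so that its fall is not independent of that choice. Without it, 3 of 8 hosts were called lower. Snhg15 fell from 108 to 115 CPM to 78.6 to 100 CPM (1.22-fold, −0.29 ± 0.0807, adjusted p = 0.0492). These 3 calls were near the threshold. Snhg5 lost its call without any 1 library except stimulated PGE2 replicate 3 (0.051 to 0.0884). Snhg17 lost it without any 1 except stimulated PGE2 replicate 2 (0.059 to 0.143), and Snhg15 without any 1 except stimulated PGE2 replicates 1 and 2 (0.0758 to 0.147).

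The 5 hosts that did not pass had values of similar size. They were Snhg4 (−0.33 ± 0.14, adjusted p = 0.164 by edgeR), Snhg1 (−0.27 ± 0.0851, 0.0713), Snhg6 (−0.23 ± 0.0828, 0.111), Snhg8 (−0.19 ± 0.0935, 0.224) and Gas5 (−0.15 ± 0.0762, 0.233). Each was lower in all 4 pairs of the same replicate number, and how often this held over all genes was not counted. The labels do not say that replicate numbers pair samples. Across genes, deviations of stimulated PGE2 replicate 2 correlated at 0.19 with its own number and at up to 0.247 with another. With the number as a block all 9 hosts were called lower, where 20.7% of all genes were. The adjusted p of these 5 was then 0.00215 for Snhg4, 0.00213 for Snhg1, 0.00171 for Snhg6, 0.00775 for Snhg8 and 0.0175 for Gas5, the lowest values among the alternatives. Their highest values were 0.345, 0.198, 0.339, 0.562 and 0.4 in the same order. Snhg1 was called in 4 of 18 alternatives. Besides the block, these include the fit without stimulated PGE2 replicate 1, its highest treated sample (−0.35, adjusted p = 0.0156).

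Whether PGE2 acted differently with and without beads was tested as an interaction over all 16 samples. It is the PGE2 effect in stimulated minus that in unstimulated cells, so a positive value means a smaller fall with beads. All 8 hosts tested had positive values, between 0.06 and 0.73 with a median of 0.16, where the median of all genes was 0.05. By edgeR 0 of the 8 were called, beside 0.517% of 15096 genes called higher. An unadjusted p under 0.05 was found for 2 of 8, beside 1415 of all 15096 genes. DESeq2 called 1, beside 153 of 28198 genes called higher, and limma on log2(FPKM + 1) called 0. The host nearest to the threshold was Snhg4 (0.73 ± 0.169, 95% interval 0.401 to 1.06, adjusted p = 0.0538). It was called by DESeq2, with upper-quartile factors, with either other count filter, with the replicate block and without stimulated PGE2 replicate 4, its lowest treated sample (adjusted p 0.00289, over all alternatives 0.00289 to 0.646). Snhg15 had 0.45 ± 0.168 (adjusted p = 0.342) and Gas5 0.16 ± 0.111 (0.772). For Snhg17 the value was 0.67 ± 0.123, given without a test. In the other 5 hosts the value was at most 0.25 with an adjusted p of at least 0.605, and the interval of Snhg6, −0.179 to 0.302, covers changes in either direction.

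The proteins that bind the nested snoRNAs moved with larger sizes than most of the hosts described here. Genes of Nop56, Nop58 and Dkc1 hold snoRNAs themselves and are also among the protein-coding hosts below. The 8 core snoRNP proteins are fibrillarin (Fbl), the methyltransferase, and Nop56, Nop58 and Snu13 of the C and D class, and dyskerin (Dkc1), the pseudouridine synthase, and Nop10, Nhp2 and Gar1 of the ACA class. All 8 rose with beads as DEGs, without PGE2 (median log2 1.51) and with it (2.07), beside 11.5% and 12.7% of all genes. All 8 were called lower with PGE2 in unstimulated cells (median −1.0, beside 15.5% of all genes), 4 of them as DEGs (beside 1.92%). Dkc1 had 117 ± 10.3 CPM (SD, n = 4) in unstimulated untreated, 41.4 ± 5.42 in unstimulated PGE2, 400 ± 57.9 in stimulated untreated and 299 ± 78.6 in stimulated PGE2 cells. It fell 2.79-fold with PGE2 in unstimulated cells (adjusted p = 2.98e-06 by edgeR). Nop58 fell 2.58-fold (adjusted p = 7.47e-06) and Fbl 1.55-fold (adjusted p = 5.29e-05).

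In stimulated cells all 8 core proteins had negative values (median −0.35), and edgeR called 0. At an unadjusted p under 0.05 were 4 of 8, beside 3761 of 13922 genes. DESeq2 and limma on log2(FPKM + 1) also called 0, and the fit with the replicate block called 8 lower, beside 20.7% of all genes. The interaction was called for Dkc1 (1.08 ± 0.218, adjusted p = 0.0264) and Nop58 (0.98 ± 0.221, adjusted p = 0.0479), 2 of 8. DESeq2 called 3 of the 8 and limma on log2(FPKM + 1) none, and the replicate block called 4. Of all genes, 0.517% had a higher interaction by edgeR, 153 of 28198 by DESeq2 and 1.79% with the block. All 4 C and D proteins rose with beads by 2.39-fold to 4.47-fold without PGE2, while the hosts of C and D snoRNAs rose by 1.23-fold to 1.6-fold.

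Of 10 factors that assemble snoRNPs, 9 were called higher with beads and 1 lower, both without and with PGE2. Beside them, 31.7% of all genes were called higher and 34.8% lower without PGE2, and 32.5% and 31.7% with it. The largest was Nolc1, a nucleolar chaperone of snoRNPs (log2 2.48 ± 0.128 without PGE2, adjusted p = 1.74e-08, and 3.57 ± 0.219 with it, adjusted p = 1.19e-06). The ones in the other direction were Pih1d1 with beads (−0.24 ± 0.0709, adjusted p = 0.00999) and Rpap3 with PGE2 in unstimulated cells (0.30 ± 0.0621, adjusted p = 0.00396), which both belong to the R2TP chaperone complex. PGE2 in unstimulated cells lowered 6 of the 10, beside 15.5% of all genes, among them Znhit6 (−1.19 ± 0.109) and Shq1 (−1.0 ± 0.128). In stimulated cells edgeR called 0, with 0 at an unadjusted p under 0.05, beside 3761 of 13922 genes. DESeq2 and limma called 0 as well, and the replicate block 7 lower, beside 20.7% of all genes. Of the interaction tests, edgeR called 0 of 10, DESeq2 1, limma 0 and the block 2. Of all genes, 0.517% were called higher by edgeR, 153 of 28198 by DESeq2 and 1.79% with the block. At an unadjusted p under 0.05 were 3 of 10 by edgeR, beside 1415 of 15096 genes.

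The factors of nonsense-mediated decay, which degrades spliced RNA of several hosts, were called about as often as genes at large. With beads 4 of 10 were called higher and 4 lower without PGE2 (median log2 −0.04), beside 31.7% and 34.8% of all genes. With PGE2 4 were called higher and 5 lower (−0.03), beside 32.5% and 31.7%, and none reached a fold change of 2. Upf1, the helicase of the pathway, rose 1.38-fold without PGE2 (0.47 ± 0.0863, adjusted p = 0.000387), and Smg8 rose as well. Upf3b fell 1.63-fold (−0.70 ± 0.125, adjusted p = 0.000286), and Smg9 also fell. In unstimulated cells PGE2 raised Upf3b (0.27 ± 0.0785, adjusted p = 0.0219) and lowered Smg5 (−0.24 ± 0.0807, adjusted p = 0.0463). DESeq2 and limma on log2(FPKM + 1) each called 1 higher and 0 lower of the 10 there, and the replicate block 4 higher and 1 lower, beside 23.6% and 24.2% of all genes with the block. In stimulated cells edgeR, DESeq2 and limma called 0. By edgeR 1 of 10 had an unadjusted p under 0.05, beside 3761 of 13922 genes. With the block 2 were higher and 1 lower, beside 19.1% and 20.7% of all genes. The same 3 tools and the block called 0 interactions. By edgeR 1 of 10 had an unadjusted p under 0.05 there, beside 1415 of 15096 genes.

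The lists of the ribosome itself bracket the hosts. All 30 ribosome biogenesis factors were called higher with beads, with medians of 1.70 without and 2.38 with PGE2 (beside 31.7% and 32.5% of all genes). With PGE2 in unstimulated cells 29 of 30 were called lower (−0.98, beside 15.5%). In stimulated cells their median was −0.32, and edgeR called 0 of 30. At an unadjusted p under 0.05 were 9 of 30, close to the share over all genes (3761 of 13922). DESeq2 and limma called 0, and the replicate block called 29 lower, beside 20.7% of all genes. The interaction was higher for 4 by edgeR, 10 by DESeq2, 0 by limma and 12 with the block. Of all genes it was higher for 0.517% by edgeR, 153 of 28198 by DESeq2 and 1.79% with the block. Ribosomal protein genes had medians nearer to 0. Of 84 tested, 17 were called higher with beads without PGE2 (median 0.11, beside 31.7% of all genes) and 37 with it (0.15, beside 32.5%). PGE2 lowered 4 in unstimulated cells (−0.08, beside 15.5%) and 1 in stimulated cells (−0.09, beside 3.8%). With the block these counts were 39, 45, 21 and 14, beside 34.8%, 33.9%, 24.2% and 20.7% of all genes. The interaction was called for 0 of the 84 by edgeR, DESeq2, limma and the block. By edgeR 1 had an unadjusted p under 0.05, beside 1415 of 15096 genes. The hosts' medians of 0.57 and 0.71 with beads thus lay between those of both lists.

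**Figure D4:**
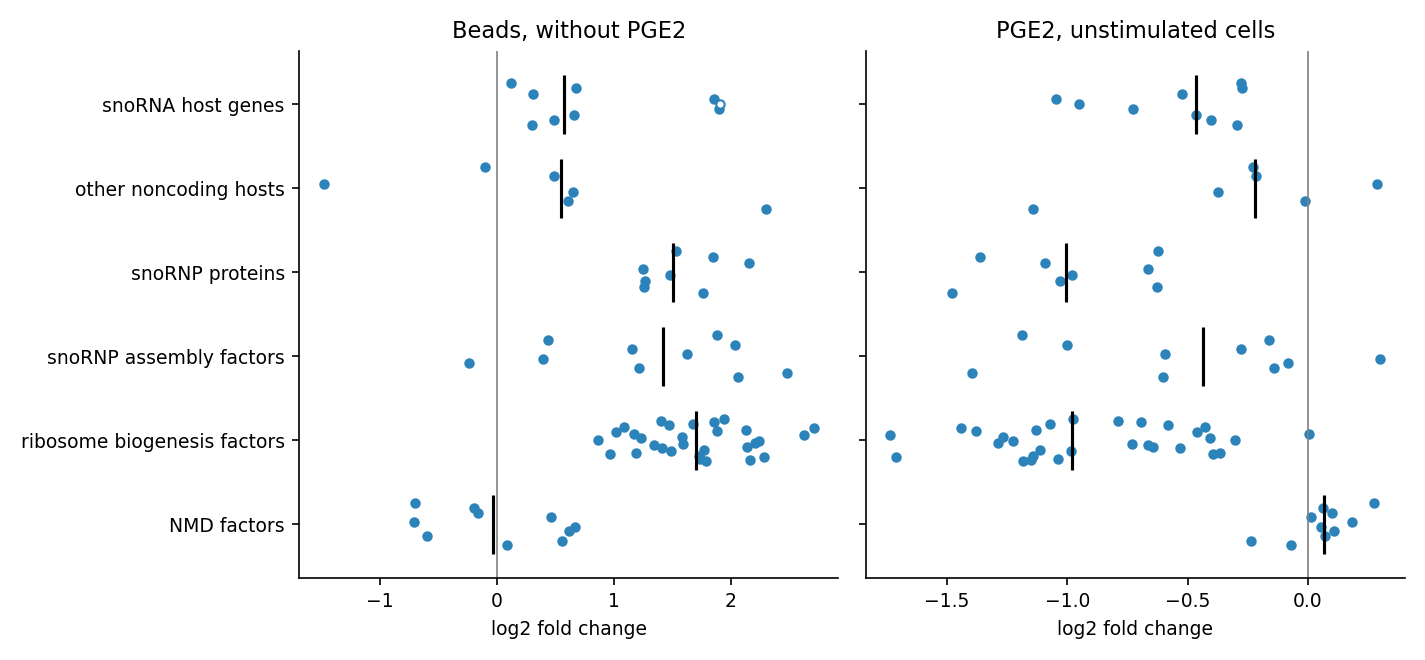
log2 fold change from edgeR (horizontal axis) for genes of 6 lists, with beads without PGE2 on the left and with PGE2 in unstimulated cells on the right. Each point is a gene (NMD, nonsense-mediated decay) and vertical bars are medians, which for the hosts leave out Snhg17 (open circle) on the left. The hosts centre at 0.57 on the left and −0.47 on the right, and the 8 snoRNP proteins at 1.51 and −1.0.

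Other noncoding hosts behaved less evenly. Of 10 further noncoding hosts, 6 passed the filter, of which 4 were called higher and 1 lower with beads in both comparisons. Of all genes, 31.7% were called higher and 34.8% lower without PGE2, and 32.5% and 31.7% with it. Dancr rose 4.93-fold without PGE2, from 3.77 to 5.07 CPM to 14.8 to 26.0 CPM (log2 2.30 ± 0.179, adjusted p = 2.49e-07 by edgeR), and fell 2.21-fold with PGE2 in unstimulated cells (−1.14 ± 0.216, adjusted p = 0.00228). Snhg20, Epb41l4aos and Snhg10 also rose, with log2 values of 0.49, 0.61 and 0.65. Snhg14, a long transcript that in neurons covers an imprinted snoRNA cluster, fell 2.79-fold at a low level (2.05 ± 0.471 to 0.749 ± 0.224 CPM, adjusted p = 0.000313). Zfas1, at 59.0 FPKM in unstimulated untreated cells, did not pass with beads (−0.10 ± 0.0727, adjusted p = 0.221, 95% interval −0.247 to 0.0377) and fell 1.17-fold with PGE2 in unstimulated cells (adjusted p = 0.0202). In stimulated cells edgeR called 0 of the 6 for PGE2, with 0 at an unadjusted p under 0.05, beside 3761 of 13922 genes. DESeq2 and limma called 0, and the replicate block 3 lower, beside 20.7% of all genes. The interaction was called for 0 of the 6 by edgeR, DESeq2, limma and the block. By edgeR 1 had an unadjusted p under 0.05, beside 1415 of 15096 genes.

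Of 258 protein-coding hosts in the annotation, 191 were tested with beads, of which 86 were called higher and 44 lower without PGE2 (median log2 0.17), beside 31.7% and 34.8% of all genes. With PGE2 98 were called higher and 37 lower (0.19), beside 32.5% and 31.7%. This list shares genes with those above, among them Nop56, Nop58, Dkc1, Ncl, Wdr43, Gnl3 and many ribosomal protein genes. PGE2 gave 17 higher and 59 lower of 192 in unstimulated cells (−0.08), beside 12.9% and 15.5% of all genes, and with the block 33 higher and 79 lower, beside 23.6% and 24.2%. In stimulated cells 7 were higher and 7 lower of 190 (−0.08), near the 6.04% and 3.8% of all genes, and with the block 30 higher and 68 lower, beside 19.1% and 20.7%. The interaction was higher for 3 of 192 by edgeR, 7 of 230 by DESeq2, 0 of 176 by limma and 12 of 192 with the block. Of all genes it was higher for 0.517% by edgeR, 153 of 28198 by DESeq2, 16 of 11252 by limma and 1.79% with the block. The 5 most abundant, Rps3a1, Rpl4, Rpl32, Eef2 and Tpt1, encode parts of the ribosome or of translation and lay between −0.14 and 0.18 with beads without PGE2, where none of them passed. They passed in none of the PGE2 comparisons either.

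Genes that start beside a host on the other strand had values of their own. Slc3a2, the heavy chain of amino acid transporters, starts 106 bases from Snhg1. It rose with beads (0.83 ± 0.0792, adjusted p = 1.34e-06 by edgeR), as Snhg1 did with 0.49. With PGE2 in unstimulated cells it had −0.11 ± 0.0613 (adjusted p = 0.214, with the replicate block 0.0434), beside −0.40 for Snhg1, and the difference between the genes was not tested. Zbtb37, a zinc finger gene that starts 427 bases from Gas5, fell with beads (−0.37 ± 0.114, adjusted p = 0.0115), where Gas5 rose. With PGE2 in unstimulated cells it had 0.30 ± 0.125 (adjusted p = 0.0995, with the block 0.00283). In stimulated cells it had 0.30 ± 0.108 (0.111, with the block 0.0132) and Slc3a2 −0.21 ± 0.096 (0.191, with the block 0.00703). Gm17300, which overlaps Snhg3 and starts 1914 bases from it, rose 4.07-fold with beads (2.02 ± 0.229, adjusted p = 6.1e-06). With PGE2 it had −0.81 ± 0.319 in unstimulated cells (adjusted p = 0.0799, with the block 0.0169) and −0.47 ± 0.219 in stimulated cells (0.196, with the block 0.00692).

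The genes most like Snhg17 over the 16 samples were ranked on values that hold the bead rise it was picked on, so a strong bead response is part of the measure. Likeness was the root mean square difference of log2 CPM, each gene centred on its own mean, over 8868 genes of at least 10 CPM. The 5 closest were Snhg4 (0.122), Wdr43 (0.156), Snhg15 (0.161), Noc2l (0.163) and Ankrd13b (0.163), where Snhg17's own variation was 1.17 on the same scale. Wdr43, also among the 30 biogenesis factors, and Noc2l encode nucleolar proteins. For Gas5, which varied by 0.253, they were Dpm2 (0.0793), Naca (0.0852), Gm2000 (0.0858), Dars (0.0859) and Sars (0.088). Naca encodes a chaperone at the ribosome, and Dars and Sars encode aminoacyl-tRNA synthetases. The points share libraries and group differences, so this is a description of pattern over samples.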

How the data were processed

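Poly(A)-enriched RNA of 16 samples (4 groups of 4) was sequenced. According to the methods and the submitters' processing notes, reads were aligned with HISAT2 2.0.5 to GRCm38/mm10 and counted per gene with featureCounts 1.5.0-p3, and DESeq2 1.20.0 was used for differential expression. The authors deposited raw counts for 54532 genes, and FPKM values normalised by the authors for gene length and depth. The annotation release and strand setting are not given in the sources used here. Columns of fold changes and p-values made by the authors were not used, and 0 sample columns were left without a sample.

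Total counts were between 22678254 and 42950763 per sample. CPM was computed here from the counts of each library on filtered genes, scaled by TMM factors over all 16 samples. Fold changes and the overlap of groups among all genes come from TMM factors of the compared samples alone. Each pair of groups was fitted with edgeR 4.0.16 in R 4.3.3 (filterByExpr, minimum count 10, TMM, two-sided quasi-likelihood test, Benjamini-Hochberg adjustment over all genes tested), and the interaction was fitted over all 16 samples. Called genes had an adjusted p below 0.05, and DEGs also a fold change of at least 2. Alternatives were DESeq2 1.42.0, RLE and upper-quartile factors, no filter or at least 10 counts in every sample, 1 fit of all samples for the pairwise comparisons, limma 3.58.1 on log2(FPKM + 1) or log2(FPKM + 0.1) for genes of mean FPKM 1 or more or without that filter, a replicate block and leaving out each replicate. Fits were tested on simulated data.

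The members and lists were chosen with earlier results of these data known. Named are the 10 hosts, other noncoding hosts (further Snhg genes, Zfas1, Dancr and Epb41l4aos), the 5 protein-coding hosts of highest mean FPKM, members of the snoRNP, assembly and decay lists, T cell and other cell markers, genes starting beside a host, and the 5 genes most alike in pattern to Snhg17 and Gas5. Further names in those lists (Nolc1, Dkc1 and the like) were chosen after their values were seen. Of the snoRNP list, Nhp2l1 was not matched. Samples with the same replicate number deviated together from their group means, across genes. Correlations were 0.112 to 0.359 (beads without PGE2), 0.19 to 0.423 (PGE2 in stimulated) and 0.137 to 0.444 (PGE2 in unstimulated cells). In these comparisons correlations with another number were lower, except for stimulated PGE2 replicate 2 against stimulated untreated samples (up to 0.247, beside 0.19 with its own number). For beads with PGE2 the same-number correlations were as low as 0.0439. The main fits of all comparisons left the numbers out, and the replicate block was run as an alternative. The main p-values thus take no account of same-numbered samples deviating together. For PGE2 in stimulated cells the calls depended on this, with 4 of 9 hosts lower in the main fit and 9 with the block. Replicates of a group differed by more than sampling noise. Annotation was GENCODE M21 and start regions RefSeq, both on GRCm38.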

Additional observations from a re-analysis of the deposited data

Results flagged for a closer look

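Gas5 in unstimulated untreated replicate 2, at 355.3 CPM, stood apart from the other 3 samples of its group, which lay between 404.5 and 414.1 CPM. The gap to the nearest of them was 0.848 of the range of the group on the log2 scale, above Dixon's critical value for 4 samples. It was 1 such sample in 36 groups of 4 values, and chance flags about 1 in 20 groups.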

How the results depend on the processing

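For PGE2 in stimulated cells, 4 hosts were called lower, Snhg17 among them. The number was 5 with DESeq2. It was 2 without a count filter, with limma on log2(FPKM + 1), on log2(FPKM + 0.1) and without the FPKM filter, and 1 to 3 when 1 library was left out. It was 1 without any of the 4 stimulated untreated replicates or stimulated PGE2 replicate 4, and 2 without stimulated PGE2 replicate 3. The replicate block, which takes same-numbered samples as pairs though the labels do not say so, gave 9. The number of hosts with a called interaction was 0, and 1 (Snhg4) with DESeq2, upper-quartile factors, no count filter, at least 10 counts in every sample or the replicate block, and 0 to 1 with a library left out. The block also turned the call of Snhg8 for PGE2 in unstimulated cells (adjusted p = 0.000998 by edgeR) and changed no other host's call. The interaction value of Snhg8 turned to −0.00541 without unstimulated untreated replicate 1 (adjusted p = 1), in a range of −0.00541 to 0.155 with a library left out. Upper-quartile factors moved the median log2 value of all genes to −0.128 for beads without PGE2 and −0.125 with it, and turned the DEGs with PGE2 from 1841 higher and 1369 lower to 1560 higher and 1758 lower. Of the values of single hosts, 736 kept direction and side of the threshold, 54 lost a call, 21 gained one and 1 turned. The causes were not tested. Counts of Snhg3, at most 16 per sample, allowed no test.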
